A study of Caenorhabditis elegans with 2 samples.

Results

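The regions described here lay upstream of the start of exactly 1 protein-coding gene in chromatin immunoprecipitation with sequencing (ChIP-seq) of the forkhead transcription factor FKH-6 in Caenorhabditis elegans. A region was taken when its summit, the position of its highest signal, lay within 500 bp upstream of the nearest annotated protein-coding gene start. Regions with the start of a protein-coding gene of the opposite strand within 500 bp, or the start of a tRNA, snoRNA, snRNA, ncRNA or piRNA gene within 500 bp, were left to other classes. Further starts on the same strand were allowed, so a single start below means protein-coding starts of 1 strand only within 500 bp. Of the 26141 nuclear regions in the list that the authors called on both replicates together, 2553 met these conditions, or 9.77%. They lay upstream of 2367 genes, 186 of which had 2 such regions and 0 had more.

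Both replicates were whole hermaphrodite late embryos of strain OP78, with the genotype unc-119(ed3) III; wgIs78, collected 5.5 hours after synchronization by egg bleaching. The worms carried a transgene for FKH-6 with a GFP-FLAG tag at its C-terminus, and the antibody used on the sonicated chromatin was against GFP. There was 1 group with 2 biological replicates and no other genotype, stage or treatment, so comparisons are between classes of regions and between the replicates. In whole embryos, binding in few cells and weak binding in many cells cannot be told apart, and tagged FKH-6 came from a transgene.

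Forkhead factors bind DNA through a winged-helix domain, and many of them recognise sites built around TAAACA. FKH-6 is known for its role in the development of the C. elegans somatic gonad. The stretch just upstream of a worm gene usually holds its promoter, where transcription factors and the general transcription machinery bind. Many worm transcripts are trimmed at the 5' end by trans-splicing, so an annotated start can lie downstream of the place where transcription begins.

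The sequences below show what the strongest upstream regions looked like. They are the windows of 50 bp on each side of the summits of 8 of the 20 upstream regions with the highest signal, taken in order of signal among those on chromosomes II to V and X with no annotated exon in the window. Each is read 5' to 3' in the direction of the downstream gene from the RefSeq copy of the WBcel235 genome, which is ce11. Capitals mark 4 features, each searched on both strands: GTGCG and TTGC on the same strand with 6 bases between them, called the spaced pair below; the purine repeat GAGAGA; the word GGGCGG; and the run of C and T, which is CCCC directly followed by TTTTC. The spaced pair and the run of C and T were chosen after windows of reproducible upstream regions had been read, so their presence here is a description.
atx-2, chrIII:10461287-10461387, plus strand: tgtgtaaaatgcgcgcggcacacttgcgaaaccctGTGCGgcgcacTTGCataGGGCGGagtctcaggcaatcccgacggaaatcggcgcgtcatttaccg
B0495.9, chrII:7708712-7708812, minus strand: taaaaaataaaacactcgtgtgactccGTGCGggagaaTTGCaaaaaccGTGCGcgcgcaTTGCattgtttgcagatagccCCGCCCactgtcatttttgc
tasp-1, chrIII:10759200-10759300, plus strand: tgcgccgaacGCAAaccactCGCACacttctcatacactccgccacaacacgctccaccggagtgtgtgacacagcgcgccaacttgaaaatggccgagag
Y32B12B.4, chrV:16553027-16553127, plus strand: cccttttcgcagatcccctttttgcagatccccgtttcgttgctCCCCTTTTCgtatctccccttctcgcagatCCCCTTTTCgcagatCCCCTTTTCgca
atad-3, chrII:10248501-10248601, plus strand: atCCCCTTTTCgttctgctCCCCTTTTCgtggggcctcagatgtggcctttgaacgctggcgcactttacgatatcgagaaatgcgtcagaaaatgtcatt
R148.3, chrIII:3175127-3175227, plus strand: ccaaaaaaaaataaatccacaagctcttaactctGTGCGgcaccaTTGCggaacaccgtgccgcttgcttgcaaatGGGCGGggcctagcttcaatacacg
F39G3.3, chrV:4731541-4731641, plus strand: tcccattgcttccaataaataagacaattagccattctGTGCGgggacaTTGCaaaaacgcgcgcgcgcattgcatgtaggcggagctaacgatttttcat
mlt-7, chrII:4392578-4392678, plus strand: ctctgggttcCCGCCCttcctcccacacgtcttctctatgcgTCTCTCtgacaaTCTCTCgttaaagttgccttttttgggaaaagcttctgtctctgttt

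Of these 8 windows, 5 held the spaced pair, and B0495.9 held 2 copies of it. The windows at Y32B12B.4 and atad-3 instead held the run of C and T in several copies. The window at mlt-7, which encodes a peroxidase needed at the molt, had the reverse complement of GAGAGA in 2 places.

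Upstream regions were in the reproducible list more often than nuclear regions at large. The authors' reproducible list holds 767 regions, those of highest signal in the pooled list, chosen by the irreproducible discovery rate between replicates, and 746 of them are nuclear. It held 156 of the 2553 upstream regions, or 6.11% (95% Wilson interval 5.25% to 7.11%, counting error only), against 2.85% of all nuclear pooled regions. The 156 made up 20.9% of the nuclear reproducible regions, where upstream regions made up 9.77% of the pooled list. Of all 19973 nuclear protein-coding genes, 11.9% had an upstream region in the pooled list and 0.776% had a reproducible one.

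The side of the gene start separated the regions more than their nearness to it. Of 2316 regions whose summits lay inside a gene within 500 bp of its start, 16 were reproducible, or 0.691% (0.426% to 1.12%). Of 16849 regions over 500 bp from any of these starts, 1.06% (0.918% to 1.23%) were. Regions with starts of both strands within 500 bp, as between divergent genes, had the higher share of 14.2% (79 of 555, 11.6% to 17.4%). Regions within 500 bp of a small RNA start also had a higher share, 8.17% (316 of 3868, 7.35% to 9.07%), and made up 42.4% of the nuclear reproducible regions. The interval for upstream regions overlapped none of these 4. A −log10 q-value of at least 2 was reached by 8.81% of upstream regions (225 of 2553) and by 4.12% of all nuclear pooled regions (1077 of 26141). Among regions reaching it, the reproducible share was 69.3% for upstream regions (156 of 225, 63% to 75%) and 68.4% for all. That threshold and the reproducible list both select regions of high signal, so these similar shares cannot show whether the excess depends on it.

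The same order appeared when each replicate's own list was used. Calling the 767 regions of highest signal in each list, 7.73% (156 of 2018) of upstream regions were called in replicate 1, against 3.82% of its nuclear regions. In replicate 2 the share was 6.54% (159 of 2430), against 2.85% of its nuclear regions. Regions inside a single start had 0.933% and 0.671% in replicates 1 and 2, regions with starts of both strands had 14.7% and 13.2%, and regions near small RNA starts had 9.97% and 7.87%. The replicates' intervals for upstream regions, 6.64% to 8.98% and 5.63% to 7.60%, overlapped each other and lay above both values for regions inside a start. Unlike in the pooled list, they overlapped those for regions near small RNA starts, 8.96% to 11.1% in replicate 1 and 7.07% to 8.76% in replicate 2. With 2 replicates of 1 group no test across samples could be made, and the intervals treat regions as independent, which neighbouring regions may not be.

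**Figure D1:**
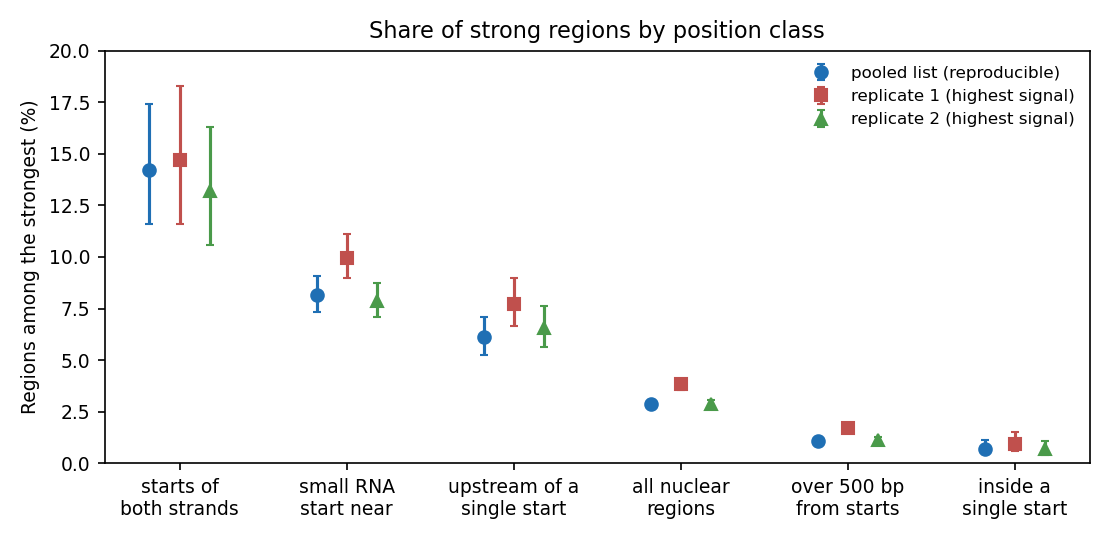
Share of regions among the strongest, in percent, for all nuclear regions and 5 classes of position; circles are the pooled list (in the reproducible list), squares and triangles the 767 regions of highest signal in replicates 1 and 2, and bars are 95% Wilson intervals. Upstream regions lie at 6.11%, 7.73% and 6.54%, below regions with starts of both strands or near small RNA starts and above regions inside a start or far from starts in each of the 3 lists.

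By distance from the gene start the reproducible share of upstream regions was fairly even. It was 5.03% (29 of 577) within 100 bp, 6.03% (37 of 614) from 100 to 200 bp and 7.53% (40 of 531) from 200 to 300 bp. It was 7.04% (33 of 469) from 300 to 400 bp and 4.70% (17 of 362) from 400 to 500 bp, and the intervals of neighbouring bins overlapped. Inside the gene, no bin of 100 bp exceeded 1.17%. The median distance of reproducible upstream summits from the start was 223.5 bp (quartiles 130.2 and 322.8 bp), and that of the other upstream summits was 215 bp (110 and 340 bp). The nearest reproducible summit lay 5 bp from the start of tos-1 and the farthest 499 bp from that of dpy-22, a Mediator subunit gene.

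**Figure D2:**
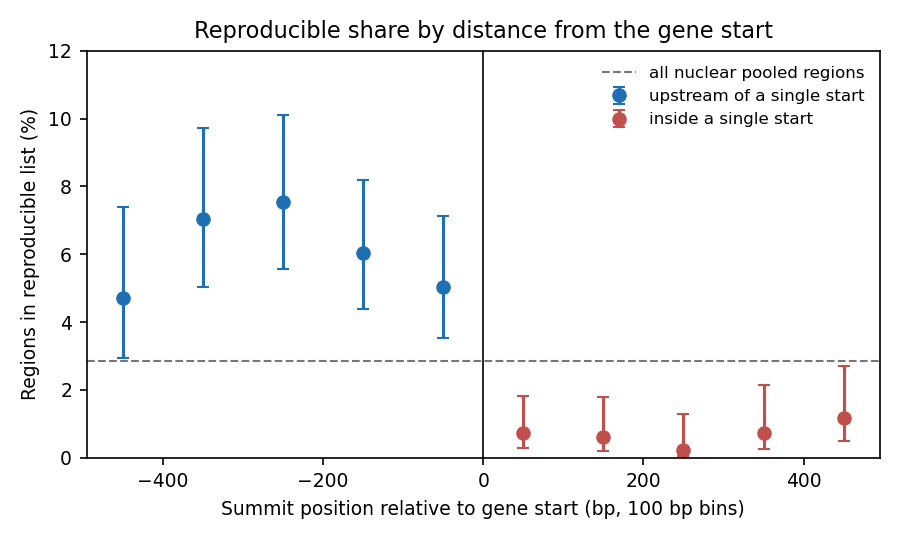
Share of regions in the reproducible list, in percent, by summit position relative to the gene start in bins of 100 bp; negative positions are upstream, bars are 95% Wilson intervals and the dashed line is the 2.85% of all nuclear pooled regions. Upstream bins lie between 4.70% and 7.53% and bins inside the gene between 0.232% and 1.17%, with the step at the start itself.

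Reproducible upstream regions were mostly intergenic. Of 2100 upstream regions in intergenic sequence, 147 were reproducible, or 7%, while 0 of 120 with summits in a coding exon of a neighbouring or overlapping gene were (upper bound 3.10%). In UTRs of other genes the count was 2 of 180, or 1.11%, and in introns 7 of 142, or 4.93%. The share varied less with the orientation of the upstream neighbour, at 7.57% (69 of 912) where the neighbour was on the opposite strand and 6.52% (78 of 1197) where it was on the same strand. A neighbour on the opposite strand has its own start over 500 bp beyond the summit, so such summits lay upstream of both genes. Where the summit lay inside another protein-coding gene, the share was 2.03% (9 of 443).

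For neighbours on the same strand, the share was higher in short intergenic gaps. It was 9.62% (28 of 291, interval 6.74% to 13.6%) in gaps under 500 bp, 6.62% (35 of 529) in gaps of 500 to 2000 bp, and 3.98% (15 of 377, 2.43% to 6.46%) in gaps of 2000 bp or more. The intervals of the shortest and longest gaps did not overlap. Where the annotated gene start was also the first base of the start codon, 3.46% (12 of 347, 1.99% to 5.95%) were reproducible, against 6.53% (144 of 2206, 5.57% to 7.64%) at genes with an annotated 5' UTR; these intervals overlap. By chromosome the share ran from 4.81% to 7.97%, and the X chromosome, with 15.4% of the reproducible upstream regions, holds 17.7% of the nuclear sequence and 13.7% of the genes.

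The upstream regions were not the strongest in the data. The deposited signal was set by the authors on an unstated scale, so it can rank regions in 1 list and no more. Reproducible upstream regions had signals from 89.92 to 390.0 (median 114.5), and 6 of the 156 reached 200. All 746 reproducible nuclear regions had a similar median, 114.8, but a maximum of 873.9 and 90 regions at 200 or above. Upstream regions made up 2 of the 50 strongest nuclear regions (4%), 10 of the 100 strongest (10%), 39 of the 200 strongest (19.5%) and 84 of the 400 strongest (21%). The middle and lower ranks of the reproducible list thus held most of them. Over all 2553 upstream regions the median signal, 37.4, stood at the 57.7th percentile of the nuclear pooled list.

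The 20 upstream regions with the highest signal ranged from 172.3 to 390.0 in the pooled list. All 20 were intergenic, and 13 had an upstream neighbour on the opposite strand. The first lay 45 bp upstream of idhg-1, which encodes a subunit of mitochondrial isocitrate dehydrogenase. Its signal was 390.0 in the pooled list, 198.5 in replicate 1 and 186.8 in replicate 2. The second lay 52 bp upstream of atx-2, the worm ataxin-2, an RNA-binding protein that takes part in translational control. Its signal was 330.3 in the pooled list, 146.9 in replicate 1 and 183.1 in replicate 2. These regions ranked 22 and 35 in replicate 1 and 34 and 35 in replicate 2, and the third upstream region, at Y92H12BR.2, was well below them with 237.9 in the pooled list, 92.29 in replicate 1 and 146.2 in replicate 2.

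After Y92H12BR.2 the signals fell gradually. B0495.9 had 230.0, tasp-1 211.5 and K05C4.7 200.3 in the pooled list; tasp-1 encodes a threonine aspartase. Next were nsf-1, the worm N-ethylmaleimide-sensitive factor of vesicle fusion, with 198.3, K10D2.5 with 197.6, and eif-3.E, a subunit of translation initiation factor 3, with 197.2. Y32B12B.4 had 197.1, W04C9.4 had 194.8 and atad-3, a mitochondrial ATPase gene, had 190.8. The remaining 8 were R148.3, F39G3.3, mlt-7, the ribosomal protein gene rps-24, the nucleoporin gene npp-8, the ribosomal protein gene rpl-3, Y50D4C.5 and sluh-7, a splicing factor gene, from 185.9 down to 172.3. None of the 20 ranked lower than 314 in replicate 1 or 338 in replicate 2, and 8 of the 20 ranked higher in replicate 2 than in replicate 1. Most pooled regions were 460 bp wide. Of the 2553 upstream regions 10 were narrower, all 10 were reproducible, and 7 were among these 20.

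**Figure D3:**
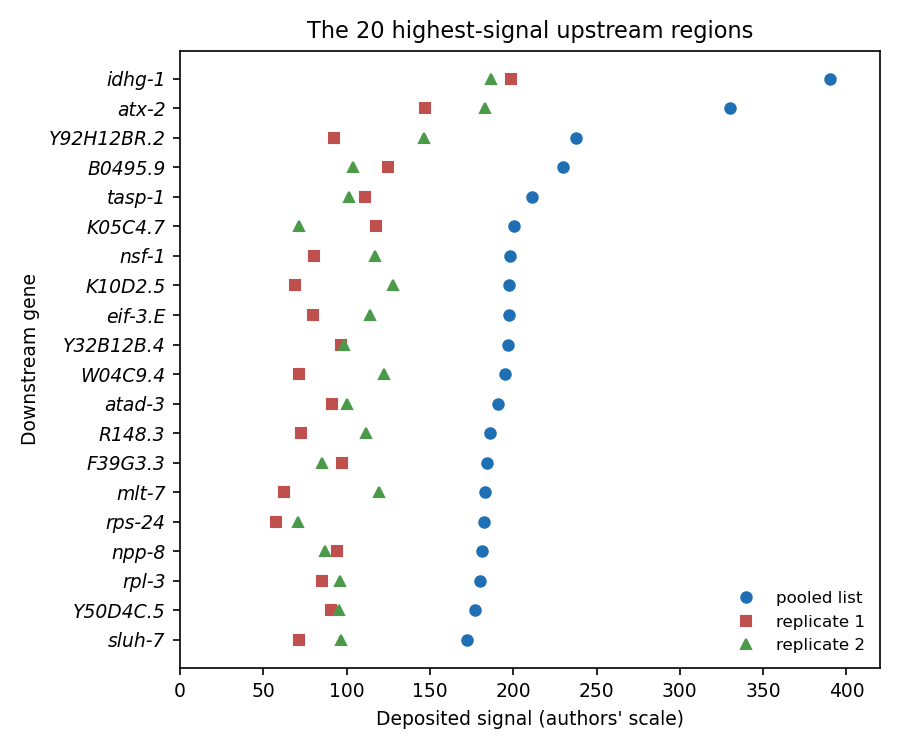
Deposited signal, on the authors' scale, of the 20 upstream regions of highest pooled signal, by downstream gene; circles are the pooled list, squares replicate 1 and triangles replicate 2. The scale ranks regions within a list, so offsets between lists are not differences in binding; idhg-1 and atx-2 lead in all 3 lists.

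At the lower edge of the reproducible list the values ran on without a gap. The last upstream regions inside it were at unc-76 (91.03, rank 724 in the pooled list) and app-1 (89.92, rank 751). The first outside were at nrde-4 (89.12, rank 768) and enu-3.3 (88.33, rank 788). The nrde-4 region had 41.57 in replicate 1 and 48.66 in replicate 2, and the unc-76 region had 43.25 and 48.84. These pairs of values, 1 on each side of the threshold, were close in both replicates.

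Most reproducible upstream regions were found in each replicate alone. Taking summits within 100 bp as a match, 152 of 156 (97.4%) had a region in replicate 1 and 153 (98.1%) in replicate 2. Among the 767 regions of highest signal, 120 (76.9%) were found in replicate 1, 128 (82.1%) in replicate 2, 97 (62.2%) in both and 5 in neither. For all reproducible nuclear regions the shares with any match were 96.2% in replicate 1 and 98.1% in replicate 2. Among the highest they were 73.3% in replicate 1, 79% in replicate 2 and 56.7% in both. Of the upstream regions outside the reproducible list, 50.9% had a match in replicate 1 and 61.8% in replicate 2. The replicates contributed to the pooled list, so this recovery is a description. The lem-2 region, with a pooled signal of 148.9, had 91.79 in replicate 1 and no match in replicate 2. The regions at mcm-10 and dpy-22 also had a match in replicate 1 and none in replicate 2.

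Over the 149 reproducible upstream regions matched in both replicates, Spearman's rho between the replicates' signals was 0.50. It was 0.56 over the 704 matched reproducible nuclear regions of all classes and 0.26 over the 671 other upstream regions matched in both. Points in each set share the same 2 libraries, and selection on pooled signal restricts their range. The −log10 q-values of replicate 1 reached 2 in 0 regions, while 202 upstream regions (8.31%) reached it in replicate 2, against 4.02% of its nuclear regions, and 225 (8.81%) in the pooled list, against 4.12%. All 156 reproducible upstream regions were among those 225.

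**Figure D4:**
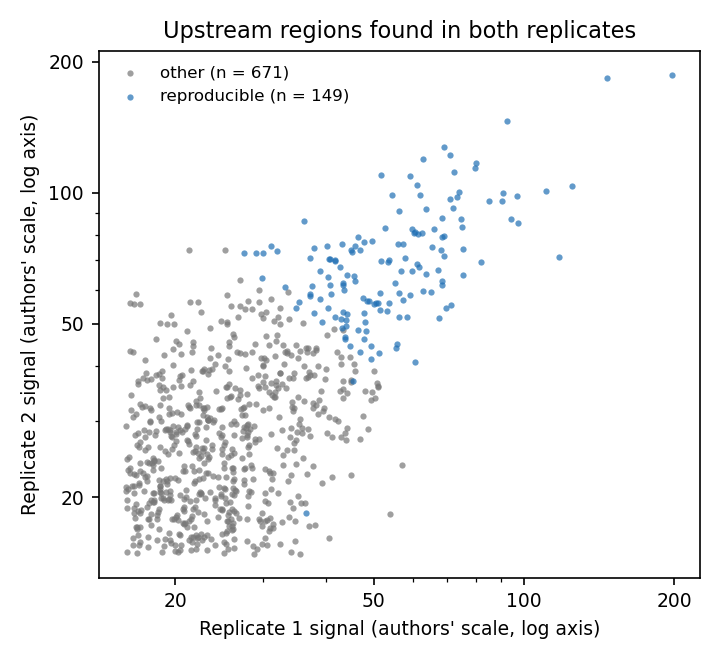
Signal in replicate 1 against signal in replicate 2, both on the authors' scale and on log axes, for upstream regions matched within 100 bp in both replicates; blue points are the 149 reproducible regions and grey points the 671 others. Reproducible regions lie up and to the right, with a rank correlation of 0.50 among them.

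Near the gene for the factor itself, fkh-6 had 0 upstream regions; its nearest summit lay 31 bp inside the gene with a pooled signal of 29.5 and was not reproducible. The gene unc-119, named in the strain's genotype, also had 0, with its nearest summit 1240 bp from the start. Within 20 kb of the fkh-6 start there were 4 upstream regions, and 3 of them were reproducible. These were at mlt-7, with a pooled signal of 182.8 and signals of 62.63 and 119.7 in replicates 1 and 2, at ntl-2, with 161.3, 54.26 and 99.09, and at mlt-7 again, with 107.4, 42.74 and 67.45. The fourth, at try-9, had 61.83 and was not reproducible. The regions at mlt-7 lie 174 and 379 bp from the start and overlap, and mlt-7 was the only gene with 2 reproducible upstream regions. Without these 4 regions the reproducible share was 6%. What part the transgene has in these signals was not tested.

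Translation factor genes had the highest share of genes with a reproducible upstream region among the gene families examined. The families below come from 43 lists of genes by name, which were chosen with earlier results of these data known, and their counts are descriptions. Of 42 translation factor genes, 11 (26.2%) had an upstream region and 5 (11.9%) had a reproducible one, against 11.9% and 0.776% of all protein-coding genes. The 5 were eif-3.E, eif-3.B and eif-3.C, subunits of initiation factor 3, with pooled signals of 197, 172 and 127, erfa-3, a release factor gene, with 152, and iff-2, the worm eIF5A, with 143. The median signal of the regions at translation factor genes stood at the 96.5th percentile of the nuclear pooled list. Of 81 cytosolic ribosomal protein genes, 15 had an upstream region and 3 a reproducible one, at rps-24 (183), rpl-3 (180) and rps-28 (170). Among 70 mitochondrial ribosomal protein genes 14 had an upstream region and 0 a reproducible one. Of 32 tRNA synthetase genes, 7 had one and 1 a reproducible one, kars-1, the lysyl-tRNA synthetase, with 91.3.

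Body wall muscle genes were also among those downstream. Of 39 such genes, 13 (33.3%) had an upstream region and 3 (7.69%) a reproducible one, against 11.9% and 0.776% of all protein-coding genes. These were unc-60, which encodes actin-depolymerising cofilin proteins, with a pooled signal of 128, unc-112, which encodes a kindlin of muscle adhesion complexes, with 125, and unc-54, the major muscle myosin heavy chain, with 102. Of 11 pharynx genes 1, the T-box factor gene tbx-2, had upstream regions. Of its 2 regions 1 was reproducible, with 93.2, and it is also the 1 reproducible region among 19 T-box genes. Of 35 neuronal genes, 9 had an upstream region and 1 a reproducible one, at daf-19, the RFX factor of ciliated neurons, with 161. Of 29 hypodermis and seam genes 6 had one, and mlt-7 was the 1 with a reproducible region.

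Other lists held 1 or 2 genes with a reproducible upstream region, where the share over all protein-coding genes was 0.776%. Among 53 cell cycle and replication genes 13 had an upstream region and 2 a reproducible one. The 2 were mcm-10, a replication initiation factor gene, with 140, and cdc-73, counted here by its name, with 91.5. Among 65 chaperone genes 10 had an upstream region and 2 a reproducible one. These were pfd-5, a prefoldin subunit, with 114, and cct-2, a subunit of the cytosolic chaperonin, with 101. Among 269 nuclear hormone receptor genes 23 (8.55%) had an upstream region and 2 (0.743%) a reproducible one. Neither share was above the 11.9% and 0.776% of all protein-coding genes. The 2 genes were nhr-1 with 106 and nhr-32 with 94.1. The nhr-32 region ranked 1368 in replicate 1 and 17499 in replicate 2. The remaining lists with exactly 1 were nuclear pore genes (8 of 26 with an upstream region, npp-8 reproducible with 181), zinc finger factors (10 of 47, ztf-11 with 106), RNA polymerase and Mediator subunits (16 of 59, rpb-11 with 103.9) and rab GTPases (5 of 29, rab-14 with 91.7).

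The other 28 lists had no gene with a reproducible upstream region, although 27 of them had genes with a region in the pooled list. Of 22 genes of the somatic gonad, where FKH-6 is known to act, 5 had an upstream region and 0 a reproducible one. Of 15 forkhead genes 4 had a region, of 63 homeobox genes 10, of 35 germline genes 2 and of 19 intestine genes 2, with 0 reproducible in each. Among large families, 40 of 1364 chemoreceptor genes (2.93%) had an upstream region, with a median signal at the 24.4th percentile, and 0 had a reproducible one. Counts were also 0 for collagens (16 of 169), F-box genes (26 of 322), C-type lectins (12 of 240), neuropeptide and insulin genes (24 of 140) and histones (4 of 72), where the values in parentheses are the genes with any upstream region. Splicing genes (12 of 57), proteasome genes (7 of 33) and respiratory chain genes (8 of 39) were lists with 0 reproducible upstream regions. All 43 lists, also those with a reproducible region, were built mostly from name prefixes and miss genes, so their counts are not complete. The zinc finger list, for example, leaves out znf-207 (133.5). The splicing list leaves out sluh-7, plrg-1 (147.6), mog-3 (144.1) and smu-2 (93.33), splicing genes with reproducible upstream regions, and the Mediator list leaves out dpy-22. The remaining lists at 0 were bHLH factors (5 of 25 with any upstream region), ubiquitin conjugation (6 of 28), vacuolar ATPase (6 of 20), tubulins and kinesins (3 of 33), a list of actin and actin-binding genes (6 of 18), which leaves out unc-60, wip-1, unc-115 and gex-2, all with reproducible regions, Wnt and Notch genes (6 of 33) and solute carriers (5 of 61). Cytochrome P450 genes (4 of 74), UDP-glucuronosyltransferases (1 of 67), acetylcholine receptors (10 of 77), potassium channels (4 of 56), astacins (5 of 37) and major sperm proteins (0 of 44) were at 0 too. At the background of 0.776% of genes, a list of under 100 genes would hold 0 or 1. A count of 0 or 1 in the smaller lists is thus not a result about them. The 43 lists together hold 4041 genes, of which 392 had an upstream region and 25 a reproducible one, or 0.619%.

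Base composition at the summits of reproducible upstream regions differed from that around them. Their summit windows, of 50 bp on each side, had a mean GC content of 48.2%, against 40.6% in the other upstream regions and 33.9% in 15508 windows placed 150 bp upstream of single protein-coding starts. The 156 other upstream regions of highest signal also had 48.2%. Among reproducible regions of other classes the mean was 46.9% with starts of both strands, 50.7% inside a start or far from starts and 51.9% near small RNA starts. In windows of 51 bp, the mean was 51% at the summit, 42.9% at 50 bp to the upstream side and 44.3% at 50 bp to the gene side, and 34.3% and 36.4% at 300 bp. In the other upstream regions it was 41.1% at the summit. The reproducible share rose with GC content of the window, from 0.758% (3 of 396) under 30% to 2.88% (22 of 765) at 30 to 40%, 6.81% (61 of 896) at 40 to 50%, 14.1% (61 of 434) at 50 to 60% and 14.5% (9 of 62) above. Sequencing and calling can depend on base composition, and what part that has in these shares was not tested.

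**Figure D5:**
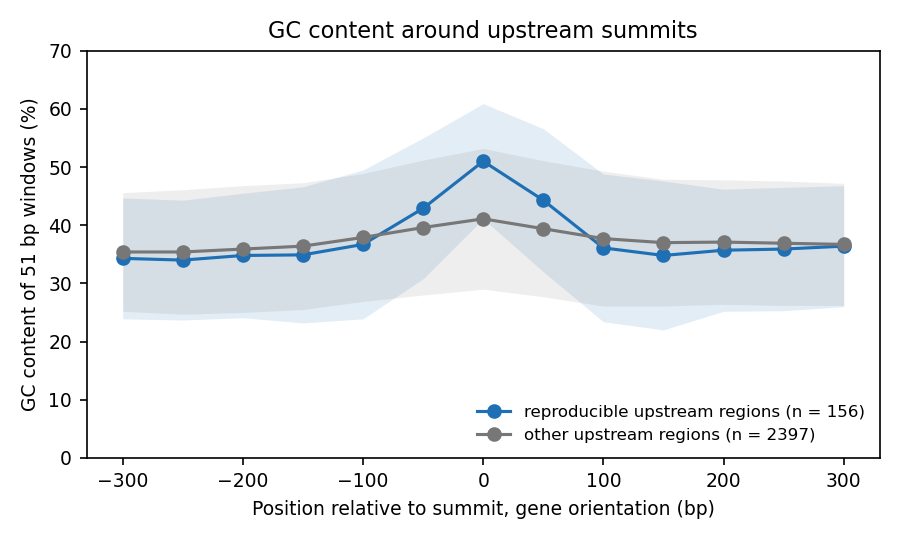
Mean GC content, in percent, of 51 bp windows at 50 bp steps around the summits of upstream regions, in the direction of the gene; blue is the 156 reproducible regions, grey the 2397 others, and shading is 1 SD over regions. Reproducible regions peak at 51% at the summit and fall to the level of the others by 100 bp on both sides.

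The forkhead core was rare at the reproducible upstream summits. TAAACA, on either strand, occurred in 1 of 156 summit windows (0.641%, 0.113% to 3.54%), against 7.55% of the other upstream windows, 5.23% of all nuclear pooled windows and 10.1% of the windows 150 bp upstream of single starts. In reproducible regions of other classes TAAACA occurred in 6.33% with starts of both strands, 5.38% near small RNA starts and 2.05% inside a start or far from starts. In the 156 other upstream regions of highest signal it occurred in 6.41% (3.52% to 11.4%). In the summit windows of a single replicate's regions that matched the reproducible list, the share was 2.65% (1.03% to 6.61%) without replicate 1 and 1.91% (0.652% to 5.47%) without replicate 2, so the value rests on a few windows. GTAAACA, which contains it, occurred in 0 of 156 (upper bound 2.40%), against 1.46% of the others and 1.79% of the windows upstream of starts. The letters are rich in A and T, and the share of TAAACA in the other upstream windows fell from 16.8% under 30% GC to 3.22% at 50 to 60% GC. At 40 to 50% GC, 0 of 61 reproducible windows held it, against 5.27% of the other upstream windows. Windows of 100 bp on each side of the summit held TAAACA in 9.62% (5.91% to 15.3%) of the reproducible and 14.2% (12.9% to 15.7%) of the other upstream regions. These letters were thus scarce within 50 bp of the summits and nearer the level of the others within 100 bp.

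Purine repeats and words rich in G and C were more frequent at these summits than upstream of gene starts at large. GAGAGA occurred in 20.5% (14.9% to 27.5%) of the 156 windows, 15.6% of the other upstream windows, 10.8% of all nuclear pooled windows and 8.16% of the windows upstream of starts. At 40 to 50% GC, however, 19.7% of reproducible and 21.6% of other upstream windows held it, and at 50 to 60% GC 23% and 24.7% did. GGGCGG occurred in 9.62% of the reproducible, 5.34% of the other upstream and 2.31% of the windows upstream of starts; at 50 to 60% GC it occurred in 13.1% of the reproducible and 15.5% of the other upstream windows. CACGTG occurred in 3.21%, 1.67% and 1.80% of the same 3 sets, and TTTCAG in 7.05%, 12.9% and 15.1%. The interval for the reproducible regions included the value of the other upstream regions for GAGAGA and, with 1.38% to 7.28%, for CACGTG, but not for GGGCGG (5.91% to 15.3%) or, lower, for TTTCAG (3.98% to 12.2%). In the 156 other upstream regions of highest signal the shares of GAGAGA (20.5%), of the word GGGCGG (9.62%) and of TTTCAG (7.05%) equalled those of the reproducible regions, and CACGTG was at 2.56%. Reproducible regions of other classes held GAGAGA in 31.3% (inside a start or far from starts), 17.7% (near small RNA starts) and 13.9% (starts of both strands). The word GGGCGG was in 7.18%, 9.49% and 13.9% of the same sets, so neither was particular to upstream positions.

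The spaced pair marked a subset of the reproducible upstream regions. It was found in 15 of 156 windows (9.62%, 5.91% to 15.3%), in 8 of 2397 other upstream windows (0.334%), in 2 of the 156 other upstream windows of highest signal (1.28%), in 0.283% of all nuclear pooled windows and in 0.0903% of the windows upstream of single starts. At 40 to 50% GC it occurred in 13.1% of reproducible and 0.359% of other upstream windows. It was chosen from reproducible upstream windows, after all 2080 words of 6 letters and longer words had also been compared. Its shares there, also within a range of GC content, thus carry no weight as evidence. Regions with starts of both strands were not read when it was chosen. There it occurred in 11 of 79 reproducible regions (13.9%, 7.96% to 23.2%) and 11 of 476 others (2.31%, 1.30% to 4.09%). These regions come from the same 2 libraries, and the others were not matched for signal, so the counts are not independent evidence. In reproducible regions inside a start or far from starts it occurred in 3 of 195 (1.54%), and in those near small RNA starts in 3 of 316 (0.949%).

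In all, 23 upstream regions held the pair, with a median pooled signal of 147, and 15 of them were the reproducible ones just counted. Those 15 had a median signal of 170.4 and a median distance from the start of 154 bp, where the other reproducible upstream regions had 112.7 and 229 bp; these are descriptions of windows from which the pair was chosen. Of the 15 regions, 14 were among the 767 of highest signal in both replicates. They held 18 copies, 14 of them on the strand of the gene, and the centre of a copy lay a median of 17 bp from the summit. Of the 15 regions, 10 lie outside the windows printed above. Some of their copies are shown here with 4 bases on each side, in the direction of GTGCG, so that the bases between and around the capitals can be compared.
npp-8, chrIV:1595994-1596016, minus strand: aggtGTGCGggggacTTGCaaca
rps-28, chrIV:1659248-1659270, plus strand: aaccGTGCGgcgctcTTGCattc
ccdc-47, chrIII:3916806-3916828, plus strand: gtgtGTGCGgcgactTTGCaaac
mtss-1, chrIII:8768079-8768101, plus strand: aactGTGCGgcgtgtTTGCggaa
swsn-3, chrIII:2768842-2768864, minus strand: ccacGTGCGgcactcTTGCaaaa
cogc-2, chrIV:7039636-7039658, minus strand: tctcGTGCGagagagTTGCgaaa

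These copies lay upstream of npp-8, a nucleoporin gene, rps-28, a ribosomal protein gene, mtss-1, a mitochondrial single-stranded DNA-binding protein gene, swsn-3, a chromatin remodelling subunit gene, cogc-2, a Golgi complex gene, and ccdc-47. Their regions had pooled signals of 181.2, 170.4, 146.9, 114.0, 106.3 and 152.1 in that order. Among words of 6 letters, these are the 3 with the greatest excess in the reproducible over the other upstream windows. The word GCGCAC occurred in 21.8% of the reproducible windows, 4.67% of the others, 6.41% of the 156 others of highest signal and 19% of reproducible regions with starts of both strands. CCGCAC, the reverse complement of GTGCGG, occurred in 17.9%, 3.09%, 12.8% and 19% of the same sets, and GGCCAC, which shares no part of the pair, in 17.9%, 3.63%, 13.5% and 16.5%. A match is a description of letters and not evidence that a protein binds there.

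The run of C and T at Y32B12B.4 and atad-3 was found in 5 of the 156 reproducible upstream windows (3.21%, 1.38% to 7.28%), in 10 of the 2397 others (0.417%) and in 0.290% of the windows upstream of single starts. The others of the 5 were at rps-24, ttll-4 and Y62F5A.12. At rps-24 the region was 124 bp wide, at Y32B12B.4 177 bp and at atad-3 201 bp, so 3 of the 10 narrow upstream regions held it. In regions of the same libraries not read when it was chosen, it occurred in 10 of 195 reproducible regions inside a start or far from starts (5.13%). With starts of both strands it occurred in 3 of 79 reproducible regions (3.80%), so it was not particular to upstream positions.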

How the data were processed

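The samples were 2 biological replicates of 1 group. Per the file headers and listing, the authors deposited region lists for each replicate, for the pooled replicates (26164 regions) and a reproducible list (767 regions) thresholded by the irreproducible discovery rate, each against a control that was not analysed here. The scale of the deposited signal, the aligner, the caller, the versions and the thresholds are not stated in the sources used here, so signal was read as a rank inside 1 list. A stricter alternative used the −log10 q-value that the authors deposited. No read counts are given, so depth is unknown. The ce11 lists were used and the ce10 lists were not.

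Summits were assigned to gene 5' ends of Ensembl release 115 (WBcel235) within 500 bp; sequence came from the RefSeq WBcel235 genome. Python 3.11.15, NumPy 2.4.6, pandas 2.3.3, SciPy 1.17.1 and Matplotlib 3.10.9 were used. The class rule was tested on simulated data. The members, 43 gene lists and motifs were chosen with earlier results of these data known. Of 8 motifs, the spaced pair and the run of C and T were added after windows were read. Genes were named by a rule: the 20 upstream regions of highest signal, up to 3 genes per list with a reproducible region, genes with 2 such regions, the nearest and farthest, the 2 on each side of the threshold, fkh-6 and unc-119. The further translation factors, lem-2, ntl-2, try-9, the genes named as missing from lists and the genes named for the spaced pair and the run were chosen after their values were seen. Wilson intervals, at 95%, hold counting error and nothing else. Alternatives were other distances, window sizes, matching rules, a stricter list and each replicate's region list alone, set against the same reproducible list. There were 0 columns of other samples.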

Additional observations from a re-analysis of the deposited data

How the results depend on the processing

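Of 57 alternative shares, medians and means, 35 stayed within the interval of the value reported, and of 12 alternative counts 11 stayed within 1.5 times the count reported. No sign could reverse, since none of these values is a signed difference. With gene starts taken within 250 bp and 1000 bp, the share of upstream regions in the reproducible list was 7.51% and 4.42%, the median distance 150 and 284 bp, and the median signal percentile 60.8 and 54.3. Asking for a −log10 q-value of at least 2 left 225 upstream regions, at a median percentile of 53.8 among regions passing it. Of these 225, 69.3% were reproducible, against 68.4% of all nuclear regions passing it. This filter and the reproducible list both select regions of high signal, so the similar shares do not bear on the excess over all regions. Matching to the reproducible list by an overlap of 0.5 of each region, in place of identity, gave 7.32%. Windows of 25 bp on each side of the summit gave 13.5% holding GAGAGA, 0% with TAAACA, 5.13% with the spaced pair, 1.28% with the run of C and T, and 51% GC; windows of 100 bp gave 30.1% with GAGAGA, 9.62% with TAAACA, and a GC content of 43.9%. Matching summits within 50 bp put 47.4% of reproducible upstream regions among the highest of both replicates.

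With the region list of 1 replicate left out, 6.21% to 7.78% of the other replicate's upstream regions matched a region of the reproducible list within 100 bp. This differs from the share among its own strongest regions given above. TAAACA was at 1.91% to 2.65%, GC content 47.2% to 48.3%, and recovery among the highest of the remaining replicate 76.9% to 82.1%. The reproducible list used here was still made from both replicates, so none of these values is free of the replicate left out. The shares follow the width of the window and the distance limit by construction; the cause of the other shifts was not tested. No paired analysis was possible because there is 1 group only. Depth is unknown, so whether weak regions reflect shallow sequencing was not tested. P-values were not given, since regions are not replicates.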

Other observations

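Of 5 upstream regions with a lincRNA start within 500 bp, 2 were reproducible, 1 of them at C46F11.4, 436 bp from the start of linc-82. The pooled signal at C46F11.4 was 169.2. Among 18 upstream regions with a pseudogene start and 7 with a miRNA start within 500 bp, 0 were reproducible (upper bounds 17.6% and 35.4%). The share over all upstream regions was 6.11%, and counts this small, also that for lincRNA starts, are not a result about such starts. The upstream summit window at Y50D4C.5, among the 20 of highest signal, had a GC content of 22.8%, far under the 48.2% mean of the reproducible windows. Genes with a locus name had a reproducible region at 6.96% of their 1552 upstream regions, and genes known only by a sequence name at 4.8% of 1001.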
